A study of Rattus norvegicus with 18 samples.

Results

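The genes described here are 5 of MHC class II antigen presentation, followed through 18 rat heart libraries: Cd74, RT1-Da, RT1-Db1, RT1-Ba and RT1-Bb. They were chosen by identifier and make up 5 of the 37262 genes listed in the files. The identifiers are ENSRNOG00000018735, ENSRNOG00000032844, ENSRNOG00000033215, ENSRNOG00000000451 and ENSRNOG00000032708, in that order. All 5 were present. RNA was depleted of rRNA and sequenced from whole heart of WKY (the normotensive Wistar-Kyoto strain), of SHR (the spontaneously hypertensive rat) given NS, and of SHR given QDG, with 6 libraries in each group. Below, SHR means the SHR group given NS and QDG means the treated SHR group, so both of these groups carry the SHR strain background. The labels expand neither NS nor QDG, do not say whether WKY received NS, and give no age, sex, dose or duration of treatment. Nothing there ties each library to its own animal, so the spread behind the p-values may be technical.

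MHC class II molecules are pairs of an alpha and a beta chain that hold peptides from engulfed proteins at the surface of dendritic cells, macrophages and B cells, where helper T cells read them. In the rat, RT1.D and RT1.B are the classical class II molecules. RT1-Da and RT1-Db1 encode the alpha and beta chain of RT1.D, and RT1-Ba and RT1-Bb those of RT1.B. Cd74 encodes the invariant chain, which binds newly made class II pairs, blocks their groove and guides them to the compartment where peptide is loaded. The chain genes are polymorphic between rat strains. The RefSeq table used here is of a BN rat and also lists RT1-Db2, a related beta chain gene, next to RT1-Db1. How well reads of each strain mapped to these genes, and whether reads were divided between related copies, was not tested.

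Class II genes are known to share promoter elements, an X box followed by a Y box, which are read by one set of factors under the control of CIITA. The stretches below show where letters of these elements occur upstream of the 5 genes. Whether the elements bear on how the genes varied between libraries was not tested. Each is 115 bases of RefSeq sequence (assembly GRCr8), 5′ to 3′ on the strand of the gene. All 5 genes matched the table by symbol. Capitals mark ATTGG, the core of the Y box, GCAAC, within the X box, and TGACG, the core of the neighbouring cyclic AMP response-like element.
Cd74, chr18:56527067-56527181, plus strand: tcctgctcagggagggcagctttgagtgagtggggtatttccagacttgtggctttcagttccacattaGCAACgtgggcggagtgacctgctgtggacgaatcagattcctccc
RT1-Da, chr20:4515276-4515390, plus strand: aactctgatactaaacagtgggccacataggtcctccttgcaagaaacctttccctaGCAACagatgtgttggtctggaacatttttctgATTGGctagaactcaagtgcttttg
RT1-Db1, chr20:4560218-4560332, minus strand: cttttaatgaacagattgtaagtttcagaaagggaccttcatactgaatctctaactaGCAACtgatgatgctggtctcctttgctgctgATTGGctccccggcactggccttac
RT1-Ba, chr20:4576924-4577038, plus strand: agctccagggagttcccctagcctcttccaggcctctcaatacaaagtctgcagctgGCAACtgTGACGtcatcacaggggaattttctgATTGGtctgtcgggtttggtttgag
RT1-Bb, chr20:4604155-4604269, minus strand: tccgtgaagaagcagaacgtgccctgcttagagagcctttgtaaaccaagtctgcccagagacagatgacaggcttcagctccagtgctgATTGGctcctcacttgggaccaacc
GCAAC was followed by ATTGG on the gene strand in RT1-Da, RT1-Db1 and RT1-Ba, with 28, 27 and 28 bases between them. A pair in this order with 20 to 35 bases between was present in 3 of the 5 genes and in 0.290% of the 33469 promoters of the table, each 300 bases long. This pair and its spacing were chosen after the 5 sequences were seen. ATTGG on either strand was present in all 5 windows of 300 bases and in 37.5% of all promoters. In Cd74 it was on the other strand, 189 bases before the start and outside the stretch shown. The GCAAC of Cd74 was 70 bases before the start, nearer than ATTGG and so not in the order X box, Y box. The stretches of the other genes were placed by ATTGG on the gene strand, and that of Cd74 was not. RT1-Bb held ATTGG 61 bases before its start, and GCAAC was not in its window on either strand. A search for these letters cannot show that an X box is absent. The longer X box core GCAACA, on either strand, was present in RT1-Da alone among the 5 and in 12.8% of all promoters. TGACG, also on either strand, was present in RT1-Ba alone among the 5 and in 21.2% of all promoters. These are matches of letters and not measured binding sites.

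Levels were read as FPKM (fragments per length of gene and per size of library), a unit that was inferred. If it holds, levels of different genes can be set side by side, within the untested limits of mapping given above. The values summed to between 598626 and 676288 per library, and absolute depth is unknown. Between 6245 and 6972 of the listed genes were at 0 in a library. Cd74 was by far the most abundant of the 5, and the order Cd74, RT1-Da, RT1-Db1, RT1-Bb, RT1-Ba held in 18 of 18 libraries. Cd74 ranked between 241 and 375 among all genes of a library. In WKY, its FPKM was 17.1 ± 1.78 times that of RT1-Da and 72.4 ± 15.4 times that of RT1-Db1 (SD, n = 6). RT1-Ba was listed at 0 in 15 of 18 libraries.

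Between the strains, Cd74 and both beta chain genes were lower in SHR hearts than in WKY hearts, while no difference was detected for the alpha chain gene RT1-Da. The sizes were very unequal. Cd74 was at 83.9% of its WKY level in SHR, RT1-Bb at 20.1% and RT1-Db1 at 13.4% (ratios of geometric means of FPKM). RT1-Da was at 85.9% by the same measure, near Cd74, but its libraries varied more within groups and the groups overlapped. Beta chain levels in QDG-treated SHR were also below those of WKY. In that group Cd74 lay between SHR and WKY and differed from neither past the threshold. Whether fewer antigen presenting cells, less class II RNA per cell or a strain difference in read mapping lay behind these values was not tested.

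**Figure D1:**
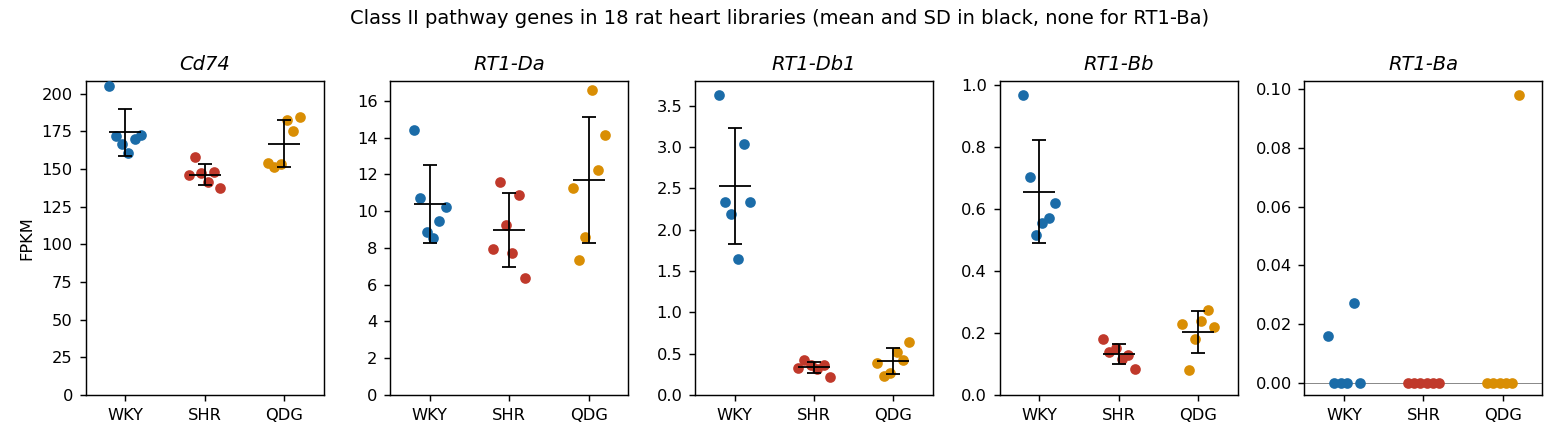
FPKM of each gene (vertical axes, linear and of different range) in the 6 libraries of WKY, SHR and QDG; each point is a library, and black marks give the mean and SD, left out for RT1-Ba. RT1-Db1 and RT1-Bb are lower in all 12 SHR-strain libraries than in every WKY library, RT1-Da overlaps between the groups, and RT1-Ba is at 0 in 15 of 18 libraries.

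Cd74, the invariant chain, ranged from 161 to 205 FPKM in WKY with a median of 171. In SHR it ranged from 137 to 158 with a median of 146, and in QDG from 151 to 185 with a median of 165. Every one of the 6 SHR values was under the lowest of the 6 WKY values, a separation found in this direction for 6.09% of all tested genes. QDG libraries overlapped both other groups: 3 of 6 were above every SHR library and 3 of 6 were below every WKY library. On the log2(FPKM + 1) scale, the scale of every fitted fold change here, the Cd74 difference between SHR and WKY was -0.25 in log2 units (SE 0.06, adjusted p = 0.00717 by limma). WKY replicate 1 held the highest value, and without it the difference was -0.20 (SE 0.06, adjusted p = 0.0158 by limma). Between QDG and SHR the log2 fold change of Cd74 was 0.19 (95% confidence interval 0.05 to 0.32), with unadjusted p = 0.00944 and adjusted p = 0.283 by limma, which is not past the threshold of 0.05. All 6 QDG libraries lay above the SHR median. Against WKY the QDG difference was -0.06 (95% confidence interval -0.20 to 0.07, limma adjusted p = 0.547).

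RT1-Da, the RT1.D alpha chain, ranged from 8.53 to 14.4 FPKM among WKY libraries (median 9.85), from 6.36 to 11.6 in SHR (median 8.59) and from 7.31 to 16.6 in QDG (median 11.8). All 3 groups overlapped. The log2 fold change was -0.20 for SHR against WKY (95% confidence interval -0.56 to 0.17, limma adjusted p = 0.447). For QDG against SHR it was 0.33 (95% confidence interval -0.04 to 0.69, limma adjusted p = 0.546), and for QDG against WKY 0.13 (95% confidence interval -0.23 to 0.49, limma adjusted p = 0.665). RT1-Da varied much between libraries of a group. Its SD within groups was 0.32 on the log2(FPKM + 1) scale, above 95.6% of the 3479 genes in its level class, whose median was 0.13; all tested genes were divided into equal classes by mean level for this purpose. Cd74 had an SD of 0.11, at percentile 44.9 of its own class.

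RT1-Db1, the RT1.D beta chain that pairs with RT1-Da, ranged from 1.64 to 3.63 FPKM in WKY with a median of 2.33. In SHR it ranged from 0.215 to 0.418 with a median of 0.348, and in QDG from 0.224 to 0.643 with a median of 0.402. No SHR or QDG library reached the lowest WKY library. Over all 37262 genes without a filter, 3.70% were separated from WKY in this direction in SHR and 2.85% in QDG. A gene at 0 in any WKY library cannot be separated in this way, which lowers these shares. Among the genes that passed the filter the share in SHR was 6.09%. The geometric mean of RT1-Db1 was 7.48 times higher in WKY than in SHR and 6.39 times higher in WKY than in QDG. On the fitted scale the log2 fold change was -1.38 for SHR against WKY (SE 0.11, limma adjusted p = 2.5e-08). For QDG against WKY it was -1.31 (SE 0.11, limma adjusted p = 5.7e-08). The added 1 FPKM compresses a gene at this level, and with 0.01 in its place the log2 fold changes were -2.86 and -2.64. RT1-Db1 passed the filter on low values only through its 6 WKY libraries, so it had to differ among the genes kept. Fitted on all 37262 genes without a filter, it was lower in SHR with limma adjusted p = 5.9e-08 and lower in QDG with limma adjusted p = 1.3e-07. Between QDG and SHR the log2 fold change was 0.07 (95% confidence interval -0.16 to 0.31, limma adjusted p = 0.878), with 0.22 at the pseudocount of 0.01.

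RT1-Bb, the RT1.B beta chain, was below 1 FPKM in every library and did not pass the filter. It ranged from 0.515 to 0.969 FPKM among WKY libraries (median 0.595), from 0.0835 to 0.179 in SHR (median 0.133) and from 0.0799 to 0.274 in QDG (median 0.224). All 12 SHR-strain libraries lay below all 6 WKY libraries, beside the same unfiltered shares of 3.70% for SHR and 2.85% for QDG. In the fit on all genes without a filter, RT1-Bb differed from WKY by -0.54 log2 units in SHR (SE 0.06, adjusted p = 4.1e-06 by limma) and by -0.46 in QDG (SE 0.06, adjusted p = 3.3e-05 by limma). These became -2.22 and -1.69 with a pseudocount of 0.01. The geometric mean was 4.96 times higher in WKY than in SHR and 3.37 times higher than in QDG. For QDG against SHR, 5 of 6 QDG libraries were above every SHR library and QDG replicate 2 was below them all. That difference was 0.09 on the fitted scale (95% confidence interval -0.04 to 0.21, limma adjusted p = 0.805) and 0.53 with the pseudocount of 0.01 (limma adjusted p = 0.714).

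RT1-Ba, the RT1.B alpha chain, was above 0 in 3 libraries only. WKY replicate 1 had 0.0160 FPKM, WKY replicate 5 had 0.0273 and QDG replicate 6 had 0.0978. All 6 SHR libraries were listed at 0, and no fold is given. The partner chain RT1-Bb was above 0 in 18 of 18 libraries.

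**Figure D2:**
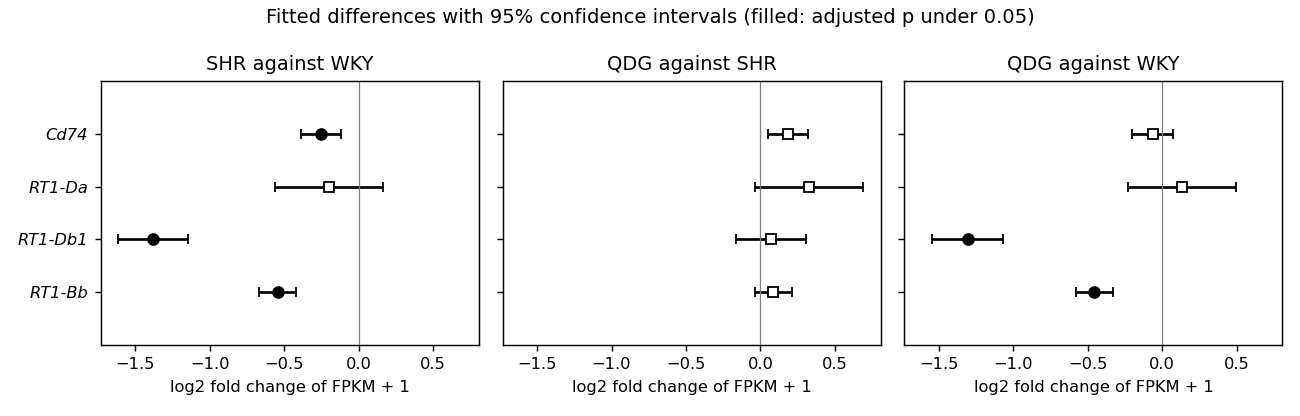
Fitted log2 fold changes of FPKM + 1 (horizontal axis) with 95% confidence intervals for 4 genes in the 3 comparisons; filled circles passed an adjusted p of 0.05 and open squares did not, and RT1-Bb comes from the fit without a filter. RT1-Db1 stands at -1.38 and -1.31 in the comparisons with WKY, and no gene passed between QDG and SHR. RT1-Db1 passed the filter only through its WKY libraries, so its filled circles add no test. The fit without a filter also called it lower than in WKY in both groups.

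Of the 3 members that passed the filter, Cd74 and RT1-Db1 were called between SHR and WKY, 2 of 3, where 24.8% of all tested genes were called. For QDG against WKY 1 of 3 was called, against 20.9% of all genes. For QDG against SHR limma called 0 of 3, with 1 of 3 (Cd74) at an unadjusted p under 0.05, where 0.293% of all genes were called. RT1-Db1 adds nothing to these counts, for the reason given above, and a share of so few members is not set against the background. Over all 5 genes without a filter, 3 were called lower in SHR than in WKY, where 6.73% of all genes were, and 2 were called lower in QDG than in WKY, where 5.17% were. The median log2 fold change of the 5 members without a filter was -0.25 for SHR against WKY, 0.09 for QDG against SHR and -0.06 for QDG against WKY, with -0.0023, 0.0065 and 0.0012 over all 37262 genes. In the comparisons with WKY this median is the value of Cd74, and between QDG and SHR that of RT1-Bb. The first pair of comparisons shares the SHR libraries, so opposite signs there are not independent.

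Whether the chain genes moved with Cd74 was asked from the ratio of each to Cd74 in the same library, in which library scale cancels. RT1-Da over Cd74 had a mean log2 ratio of FPKM of -4.09 in WKY, -4.06 in SHR and -3.88 in QDG. The SHR and WKY ratios differed by 0.03 (SE 0.13, two-sided exact permutation p = 0.786, adjusted 0.848 over 9 ratios). No difference of this ratio was detected in the other comparisons either, at 0.17 for QDG minus SHR (SE 0.17, exact permutation p = 0.331, adjusted 0.426) and 0.21 for QDG minus WKY (SE 0.15, exact permutation p = 0.190, adjusted 0.312).

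The beta chain ratios to Cd74 differed between the strains. RT1-Db1 over Cd74 was at -6.15 in WKY, -8.80 in SHR and -8.76 in QDG on the log2 scale. SHR minus WKY was -2.65 (SE 0.17) and QDG minus WKY was -2.61 (SE 0.22), each with exact permutation p = 0.00216, the smallest possible for 6 against 6, and 0.00487 after adjustment over 9 ratios. RT1-Bb over Cd74 was at -8.09 in WKY, -10.14 in SHR and -9.77 in QDG. Its differences from WKY were -2.06 in SHR (SE 0.16) and -1.69 in QDG (SE 0.25), with the same exact permutation p = 0.00216 and adjusted 0.00487. Between QDG and SHR the ratios differed by 0.04 for RT1-Db1 (SE 0.22, exact permutation p = 0.848, adjusted 0.848) and by 0.37 for RT1-Bb (SE 0.27, exact permutation p = 0.208, adjusted 0.312). These ratios were taken without a pseudocount, a choice made after the low beta chain levels were seen. With the planned pseudocount of 1, over 12 ratios, the 4 beta chain differences from WKY kept their sign with adjusted exact permutation p = 0.00519 and were smaller. They were -1.13 in SHR and -1.24 in QDG for RT1-Db1, and -0.29 and -0.39 for RT1-Bb. The added 1 compresses the low beta chain values, so the level of Cd74 weighs more in these ratios. Without a pseudocount SHR was the group farther from WKY, whereas with the pseudocount of 1 it was QDG, for both genes. The RT1-Ba ratio on that scale differed by 0.24 for SHR minus WKY (adjusted exact permutation p = 0.00519), by -0.16 for QDG minus SHR (adjusted exact permutation p = 0.0223) and by 0.08 for QDG minus WKY (adjusted exact permutation p = 0.335). With RT1-Ba at 0 in 15 libraries, these mirror the level of Cd74 and are not read as a change of RT1-Ba. That scale gave a called RT1-Db1 difference of -0.11 between QDG and SHR (exact permutation p = 0.0108, adjusted 0.0216), which reversed to 0.03 with a pseudocount of 0.01.

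The FPKM values of the alpha and beta chain genes of RT1.D stood in different proportion in WKY and in the SHR-strain groups. Whether reads of both strains mapped equally well to these polymorphic genes was not tested. On average RT1-Da was 4.22 ± 0.693 times RT1-Db1 in WKY, 26.9 ± 2.47 times in SHR and 29.6 ± 4.02 times in QDG (ratio of FPKM, SD, n = 6 each). The highest WKY ratio was 5.18 and the lowest in an SHR-strain library was 22.0. The beta chain genes were closer to each other, with RT1-Db1 at 3.89 ± 0.820 times RT1-Bb in WKY, 2.57 ± 0.411 in SHR and 2.10 ± 0.649 in QDG (SD, n = 6 each).

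**Figure D3:**
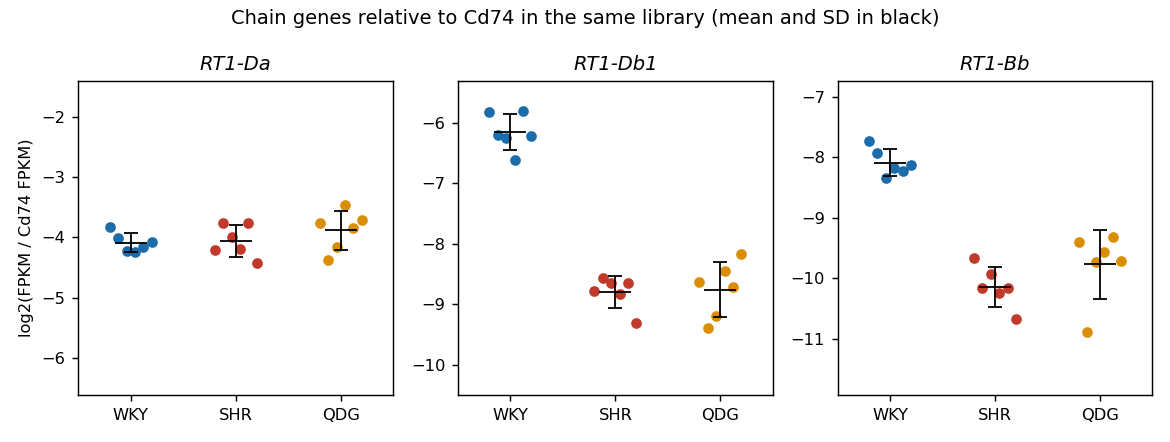
Log2 ratio of the FPKM of RT1-Da, RT1-Db1 and RT1-Bb to that of Cd74 in the same library (vertical axes of equal span), by group; points are libraries, and black marks give the mean and SD. RT1-Da stays near -4 in all groups (means -4.09, -4.06 and -3.88), whereas RT1-Db1 and RT1-Bb sit lower in every SHR and QDG library than in every WKY library.

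Within each group, libraries with more Cd74 also had more RT1-Da. Over the 6 libraries of a group, on log2(FPKM + 1), Pearson's r was 0.975 in WKY (exact permutation p = 0.00556, adjusted 0.0125), 0.914 in SHR (exact p = 0.00278, adjusted 0.0125) and 0.887 in QDG (exact p = 0.0111, adjusted 0.0200), with adjustment over 9 relations. Spearman's rho was 0.943 (exact p = 0.0167, adjusted 0.0300), 1 (exact p = 0.00278, adjusted 0.0125) and 0.943 (exact p = 0.0167, adjusted 0.0300). Without the 2 libraries farthest from the median of Cd74, r was 0.890, 0.767 and 0.735. Genes of 1 library share its scaling and its tissue sample.

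RT1-Db1 also followed Cd74 in the SHR-strain groups, where it was low. Pearson's r in SHR was 0.932 (adjusted 0.0125 from an exact p of 0.00556), with a Spearman's rho of 0.943 (adjusted 0.0300 from an exact p of 0.0167), and r was 0.921 without the 2 farthest libraries. For QDG, r came to 0.904 and rho to 1 (each adjusted to 0.0125 from an exact p of 0.00278), and r to 0.726 without the 2 farthest. The WKY libraries gave an r of 0.848 (adjusted 0.0458 from an exact p of 0.0306) and a rho of 0.829 (adjusted 0.0750 from an exact p of 0.0583). That relation rested on WKY replicates 1 and 4, and r was 0.206 without them. RT1-Bb against Cd74 in WKY had an r of 0.944 (adjusted 0.05 from an exact p of 0.0389) and a rho of 0.886 (adjusted 0.05 from an exact p of 0.0333), at the threshold and not under it, and r was 0.797 without the 2 farthest. It did not pass in SHR, where r was 0.542 (adjusted 0.225, equal to the exact p) and rho 0.486 (exact p of 0.356 before and after adjustment), nor in QDG, where r was 0.638 (adjusted 0.172 from an exact p of 0.153) and rho 0.600 (adjusted 0.272 from an exact p of 0.242). Without the 2 farthest libraries these r values were 0.439 and 0.731. RT1-Ba was not examined in this way, being at 0 in 15 libraries.

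**Figure D4:**
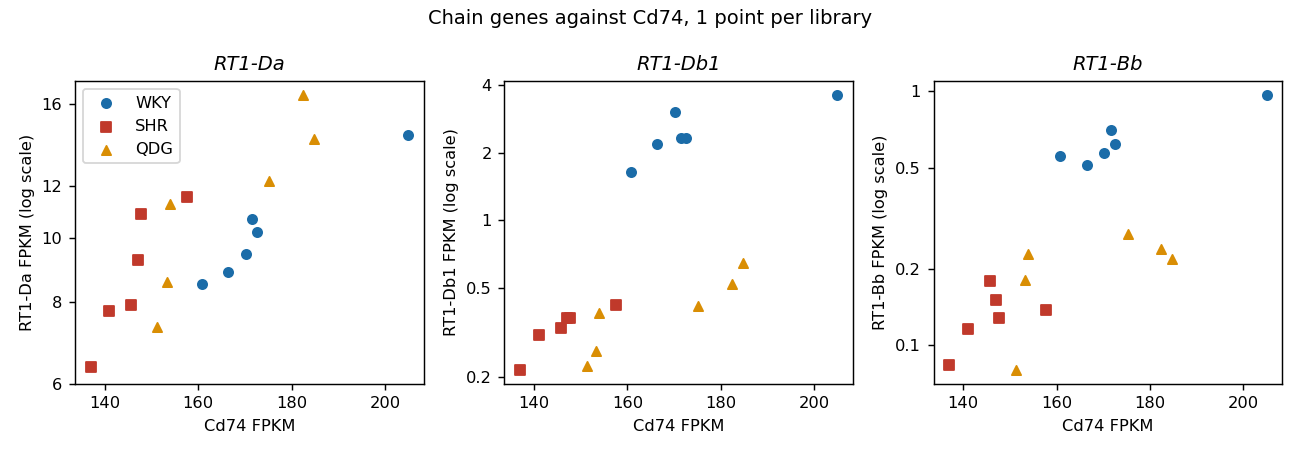
FPKM of RT1-Da, RT1-Db1 and RT1-Bb (vertical axes, log scale) against Cd74 FPKM (horizontal axis) in 18 libraries, with WKY as circles, SHR as squares and QDG as triangles. Points rise together within groups for RT1-Da (r from 0.887 to 0.975), and for RT1-Db1 and RT1-Bb the WKY libraries form a band above the others.

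Among 17394 other genes that passed the filter, the one most like the 5 members across the 18 libraries, after the group means were removed, was ENSRNOG00000017869. It correlated at 0.83 with the mean of the 5 standardized members and at 0.89 with the mean of the 3 that passed the filter, and was first by both measures. Its mean level in WKY, SHR and QDG was 3.12 ± 0.523, 2.99 ± 0.506 and 3.87 ± 1.13 FPKM (SD, n = 6 each). By the mean of 5 the next was ENSRNOG00000025711, at 0.82 and number 4 by the mean of 3, with 2.43 ± 0.470, 2.13 ± 0.334 and 2.44 ± 0.302 FPKM in the 3 groups (SD, n = 6 each). Both were picked as the highest of 17394 correlations, so these values are high partly by selection. RT1-Ba, at 0 in 15 of 18 libraries, had equal weight in the mean of 5. The reference table pairs no Ensembl identifier with a symbol, so these genes stay unnamed.

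For the same reason, lists of the peptide loading genes, CIITA and its partners, class I genes, the interferon gamma pathway, costimulatory genes and markers of macrophages, dendritic cells, B cells, T cells and heart muscle were not analysed here.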

How the data were processed

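Heart RNA of WKY, SHR and QDG-treated SHR (18 libraries, 6 each) was extracted with Trizol, depleted of rRNA and made into Illumina libraries with a NEB kit, per the labels' protocols. The library titles read mRNAseq, and the text follows the protocols for the depletion of rRNA. The deposited values were read as FPKM, normalized by the authors. The files name no unit: FPKM is an inference from fractional values and from totals that differ by library. The submitters' processing notes name limma. Not given in the sources used here are the aligner, counter, build, annotation and strandedness. Overlapping or antisense genes may share reads.

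The 5 genes and the lists were chosen with earlier results of these data known. Their names come from the rule that chose them: the reference of 47357 entries (GRCr8) held 0 Ensembl identifiers. A gene was tested where 6 or more libraries had 1 FPKM or more (17397 genes). The test was limma (version 3.58.1, under R 4.3.3 and with statmod 1.5.0) on log2(FPKM + 1), using trend and robust moderation, 1 mean per group over 18 libraries and Benjamini-Hochberg adjustment over all genes tested at a threshold of 0.05, two-sided. RT1-Bb was read from the same fit on all 37262 genes. The fit was tested on simulated data. Ratios and relations used exact permutation in Python 3.11.15 with scipy 1.17.1. Relations with RT1-Ba were planned and not run. The genes named were the 5 members and, of the genes most correlated with them, 2 identifiers. Alternatives were other scalings, filters, pseudocounts, moderation, sample weights, the 12 compared libraries alone, a replicate block and each library left out.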

Additional observations from a re-analysis of the deposited data

Results flagged for a closer look

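Of 15 sets of 6 values (5 genes in 3 groups), 3 held a library far from the other 5, where chance gives about 1 in 20 sets. That rate assumes independent sets without many zeros, which does not hold for RT1-Ba or for genes that vary together. Cd74 was at 204.9 FPKM in WKY replicate 1 and at 161 to 173 in the other WKY libraries. In the same library RT1-Da had 14.4 FPKM, with 8.53 to 10.7 FPKM elsewhere in WKY. WKY replicate 1 also held the highest WKY values of RT1-Db1 and RT1-Bb, at 3.63 and 0.969 FPKM. RT1-Ba was at 0.0978 FPKM in QDG replicate 6 and listed at 0 in the other QDG libraries.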

How the results depend on the processing

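Of 564 alternative values, 543 kept their direction and their side of the threshold, or for counts of genes stayed within 1.5 times. No fold change of Cd74, RT1-Da, RT1-Db1 or RT1-Bb changed its call or direction in any alternative run, though sizes moved. With each library left out in turn, Cd74 ranged from -0.27 to -0.20 for SHR against WKY and from -0.095 to -0.018 (without WKY replicate 1) for QDG against WKY. RT1-Da ranged from -0.27 to -0.11 (without WKY replicate 1) for SHR against WKY and from 0.028 (without QDG replicate 4) to 0.24 for QDG against WKY, and RT1-Db1 from 0.027 (without QDG replicate 6) to 0.11 for QDG against SHR. The count of genes called for QDG against SHR, 51, was 104 under sample weights, 79 under quantile normalization, 77 under median centring and 30 with no filter. It lay between 29 and 69 with 1 library left out, falling to 29 or 30 when SHR replicate 6 or 4 was dropped and to 32, 31 or 30 when QDG replicate 2, 3 or 6 was. The cause was not tested. For ratios to Cd74 on the pseudocount of 1, the RT1-Db1 difference of QDG from SHR became -0.000478 with 0.1, 0.0348 with 0.01 and 0.0395 with none, and the RT1-Bb difference, -0.10, became 0.171, 0.342 and 0.371; these follow from how much the pseudocount adds to low values. With 1 library left out the latter lay between -0.129 and -0.0744, and was called only without QDG replicate 1 (-0.13, adjusted exact permutation p = 0.0325). A replicate block, as sign flips over the 6 same-numbered pairs, left the ratio differences at -1.13, -0.11 and -1.24 (RT1-Db1) and -0.29 and -0.39 (RT1-Bb) with adjusted exact permutation p = 0.0625, and 0.0938 for RT1-Db1 in QDG against SHR, since 6 pairs allow few distinct signs. Same-numbered libraries correlated at -0.06 to 0.19, so the numbers were not taken to pair the libraries. The block gave 4760, 40 and 4028 called genes, where the main fit gave 4306, 51 and 3642. The comparisons with WKY thus had more calls with the block. Whether same-numbered libraries were handled together was not tested. The filter at 5 FPKM gave no value for RT1-Db1, ratios of RT1-Ba were not varied, and median centring shifted no library by more than 0.0984. The choice of pseudocount limits what the low beta chain genes can show, and absolute depth is unknown.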
